A study of Mus musculus with 30 samples.

Results

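The genes described here encode 6 enzymes and subunits that modify collagen: P4ha1, P4ha2, P4hb, Plod1, Plod2 and Lox, out of 21887 mouse protein-coding genes. They were followed in chromatin immunoprecipitation data from N1E115 cells, a mouse neuroblastoma line carried here in its NOS1+ form, which had spent 3 days at 4% O2 or at 20% O2. The 24 libraries analysed were made with 6 antibodies, with 2 libraries at 4% O2 and 2 at 20% O2 for each antibody. The 6 input samples are not analysed here. The antibodies recognised RNA polymerase II (POLR2), its forms phosphorylated on serine 5 (POLR2S5) and serine 2 (POLR2S2) of the C-terminal repeats, acetylated lysine 9 of histone H3 (H3K9ac), the insulator protein CTCF and the cohesin subunit RAD21. The 2 libraries of a group come from different sequencing rounds, called round 1 and round 2. The labels of round 2 add that the air held 5% CO2 at ambient pressure, at both O2 levels. No label says that rounds came from separate cultures. Each gene was taken with 1 kb to each side of its RefSeq limits on mm10. The genes were picked with earlier 4% against 20% O2 values of these same libraries known, so all such values below are a description and carry no test.

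Collagen chains are hydroxylated in the endoplasmic reticulum before they fold. Prolyl 4-hydroxylase, a tetramer of catalytic alpha subunits (P4ha1 or P4ha2) and protein disulfide isomerase (P4hb), makes the 4-hydroxyproline that stabilises the triple helix. Lysyl hydroxylases (Plod1, Plod2) make the hydroxylysine used for sugar attachment and for cross-links, and the secreted copper enzyme lysyl oxidase (Lox) starts cross-linking outside the cell. The hydroxylases use molecular oxygen, 2-oxoglutarate and iron. Several of these genes are known in other cells as targets of the hypoxia-inducible factors, which bind sites with the core letters ACGTG or GCGTG. No such factor was measured here.

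The promoters of the 4 members that the RefSeq promoter table (GRCm38.p6, the assembly of mm10) holds are shown. Summed polymerase reads, scaled between libraries, separated by O2 level at P4ha1 and P4ha2 for every form. At P4hb and Plod1 separation depended on the form and on how island reads were assigned. Each runs 5′ to 3′ on the gene's strand over 300 bases, and capitals mark ACGTG and GCGTG on either strand (CACGT and CACGC are their reverse complements). P4ha1 lies at chr10:59323046-59323345 (plus strand), P4ha2 at chr11:54100674-54100973 (plus), P4hb at chr11:120573204-120573503 (minus) and Plod1 at chr4:147936727-147937026 (minus).
P4ha1: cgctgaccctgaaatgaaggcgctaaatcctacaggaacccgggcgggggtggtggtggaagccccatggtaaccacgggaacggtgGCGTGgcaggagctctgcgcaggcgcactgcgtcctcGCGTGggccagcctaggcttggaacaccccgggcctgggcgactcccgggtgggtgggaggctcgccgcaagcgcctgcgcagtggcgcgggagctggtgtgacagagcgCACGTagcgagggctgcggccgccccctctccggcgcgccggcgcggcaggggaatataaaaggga
P4ha2: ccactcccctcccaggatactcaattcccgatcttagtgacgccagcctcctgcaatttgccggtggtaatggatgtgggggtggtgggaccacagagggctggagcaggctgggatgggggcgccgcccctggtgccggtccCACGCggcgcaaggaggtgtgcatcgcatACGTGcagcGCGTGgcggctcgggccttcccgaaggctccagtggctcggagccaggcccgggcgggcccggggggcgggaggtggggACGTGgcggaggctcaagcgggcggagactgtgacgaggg
P4hb: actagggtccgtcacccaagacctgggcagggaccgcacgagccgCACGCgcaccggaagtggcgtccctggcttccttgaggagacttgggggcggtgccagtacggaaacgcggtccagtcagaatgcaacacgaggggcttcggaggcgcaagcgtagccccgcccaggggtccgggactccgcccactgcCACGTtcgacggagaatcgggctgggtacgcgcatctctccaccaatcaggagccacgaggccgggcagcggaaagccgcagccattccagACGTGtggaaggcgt
Plod1: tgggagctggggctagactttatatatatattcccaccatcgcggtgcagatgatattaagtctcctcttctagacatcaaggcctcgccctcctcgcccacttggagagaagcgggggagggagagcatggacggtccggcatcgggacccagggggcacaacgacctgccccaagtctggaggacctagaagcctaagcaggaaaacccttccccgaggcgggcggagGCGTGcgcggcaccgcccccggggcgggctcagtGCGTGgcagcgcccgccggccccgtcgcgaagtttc

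P4ha1 held 1 ACGTG and 2 GCGTG, and P4ha2 held 2 of each. P4hb held 2 ACGTG and 1 GCGTG, and Plod1 held 2 GCGTG and no ACGTG. Matches on the 2 strands were counted separately. Among 21263 promoters of 17492 protein-coding genes in the same table, 20.9% held ACGTG, 38.5% held GCGTG and 49.3% held at least 1 of them. A match is a stretch of letters, not a bound site, and each of the promoters shown had matches. The share of G and C was 70.3% in P4ha1 and P4ha2, 67% in P4hb and 64.3% in Plod1. The start used by the promoter table for P4ha1 is downstream of the annotated gene start.

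Polymerase signal was deposited as islands, broad enriched stretches, each with its count of reads. Summed island reads per polymerase library lay between 2.06 and 16.6 M (mega), which is not the library depth. For each polymerase form the lowest sum belonged to round 1 at 20% O2. For POLR2S2 both 4% O2 libraries (10.4 and 16.6 M) had higher sums than both 20% O2 libraries (4.9 and 9.7 M). Its unscaled reads and island breadths below therefore follow the same order as these sums in the bulk, and their part in single genes was not tested. To compare libraries, reads of a gene were divided by TMM factors (scaled reads), which set the bulk of genes to a ratio near 1. H3K9ac peaks lay at 11 of 12 neuroblast and sympathetic markers in all 4 libraries, among them Th and Dbh, with Nos1 the exception. The share of all protein-coding genes was 58.9%. Islands in all 4 libraries lay at 4 of these 12 markers for POLR2, 9 for POLR2S5 and 8 for POLR2S2. Of all protein-coding genes, 42.2%, 52.7% and 42.8% had such islands. Nos1 was among the markers with islands for the 2 phosphorylated forms and not for POLR2. None of 11 fibroblast markers had an island of any polymerase form in all 4 libraries, and 8 of them, including Col1a2 and Dcn, had none at all. The shares of all protein-coding genes with none were 36.8%, 35.5% and 39% for POLR2, POLR2S5 and POLR2S2. Pdgfra and Pdgfrb nevertheless carried H3K9ac in all 4 libraries. Of 7 endothelial markers, Pecam1 carried POLR2 and POLR2S5 islands in all 4 libraries, and Pecam1, Tek and Erg carried H3K9ac in all 4. No POLR2S2 island lay at 6 of the 7 in any library, against 39% of all protein-coding genes. The share of cells that carry polymerase on a gene and the amount per cell cannot be told apart in such data.

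P4ha1, a catalytic alpha subunit gene of 50.1 kb (chr10:59323197-59373304), carried more reads of all 3 polymerase forms in both 4% O2 libraries than in either 20% O2 library. For POLR2S2, the form typical of elongation, its islands held 5536 and 11971 reads at 4% O2 in rounds 1 and 2, against 558 and 2582 at 20% O2. After scaling these became 5735 and 6933 at 4% O2 and 1305 and 2933 at 20% O2. The lower of the 4% O2 libraries thus stood above the higher of the 20% O2 libraries. The log2 ratio was 1.58 ± 0.50 (SE of the fit, n = 2 per level), with 2.14 in round 1 and 1.24 in round 2.

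For POLR2S5, typical of early transcription, P4ha1 islands held 4482 and 6486 reads at 4% O2, against 815 and 2688 at 20% O2. The log2 ratio was 1.40 ± 0.45, with 1.58 in round 1 and 1.25 in round 2. For POLR2 the counts were 1891 and 4511 at 4% O2 against 0 and 1649 at 20% O2. The 0 stands for no island called in round 1, where the nearest island lay 96.8 kb away. P4ha1 therefore entered no POLR2 fit, which needed an island in all 4 libraries. Without the round 1 library of 20% O2 the log2 ratio was 0.95 for POLR2, 1.14 for POLR2S5 and 1.12 for POLR2S2.

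The islands of P4ha1 overlapped no other protein-coding gene in any library. At 4% O2 a single island ran over the whole gene in every library of every form, covering 100% of the window to within rounding. At 20% O2 in round 1 POLR2S5 was broken into 5 islands over 38.6% of the window, and POLR2S2 into 2 islands over 39%. At 20% O2 in round 2 a single island covered 89.8% for POLR2 and 100% for the phosphorylated forms. Per kb of island the log2 ratio of P4ha1 was 1.13 for POLR2S5 and 1.47 for POLR2S2, so the 4% O2 libraries were also higher where breadth was taken out. All 12 alternative settings gave P4ha1 a positive ratio for both phosphorylated forms.

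P4ha2, the other catalytic alpha subunit (chr11:54100924-54131668), showed the same order of libraries, with rounds that lay farther apart for POLR2S2. Its POLR2S2 islands held 2648 and 7222 reads at 4% O2, against 104 and 1772 at 20% O2. The log2 ratio was 1.62 ± 0.97, with 3.50 in round 1 and 1.06 in round 2. The round 1 value rests on the 20% O2 library with 104 reads, and without it the ratio was 0.79.

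POLR2S5 islands of P4ha2 held 2481 and 4697 reads at 4% O2 and 478 and 2557 at 20% O2, a log2 ratio of 1.08 ± 0.56, or 0.58 without the round 1 library of 20% O2. POLR2 islands held 1360 and 3725 reads at 4% O2 and 249 and 1408 at 20% O2, a log2 ratio of 1.15 ± 0.52. In scaled reads the groups did not overlap for any form, although in unscaled reads the 4% O2 library of round 1 was below the 20% O2 library of round 2 for POLR2 and POLR2S5. Breadth moved with the counts: POLR2 islands covered 93.1% and 100% of the P4ha2 window at 4% O2, against 13.7% and 62.5% at 20% O2. Per kb of island the POLR2 ratio of P4ha2 turned to -0.12, while it stayed positive at 0.53 for POLR2S5 and 1.11 for POLR2S2. The P4ha2 islands, too, touched no other protein-coding gene.

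**Figure D1:**
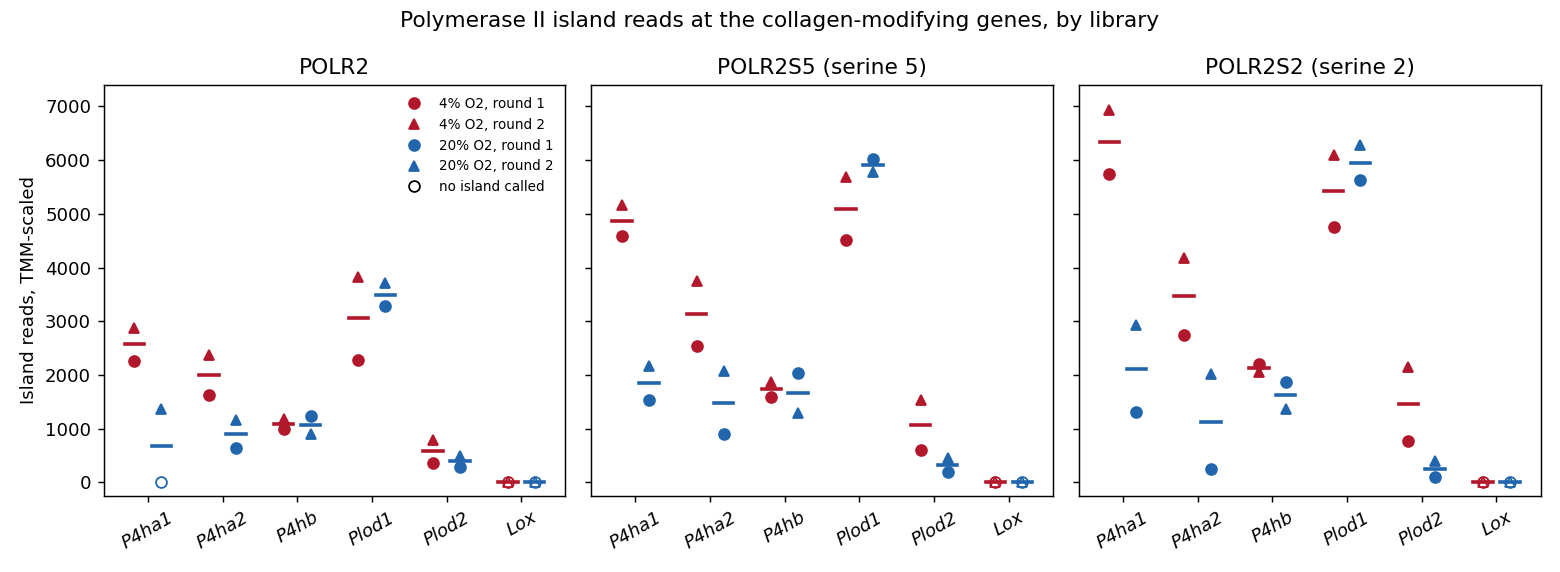
Scaled island reads (vertical axis, linear) of the 6 genes for POLR2, POLR2S5 and POLR2S2, with 4% O2 in red to the left of 20% O2 in blue. Circles are round 1, triangles round 2, bars the mean of 2 libraries, and open symbols libraries with no island. P4ha1 and P4ha2 separate by O2 level for every form, the groups of P4hb overlap for POLR2 and POLR2S5 and those of Plod1 for POLR2 and POLR2S2, and Lox has no island.

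P4hb encodes protein disulfide isomerase, the beta subunit of the tetramer, which also folds many other proteins (chr11:120560298-120573253). POLR2 islands held 827 and 1852 reads at 4% O2 against 481 and 1079 at 20% O2, which is 987 and 1183 against 1231 and 895 scaled reads, so the groups overlapped. The log2 ratio was 0.03 ± 0.44 for POLR2 and 0.05 ± 0.44 for POLR2S5. Rounds differed in sign, with -0.32 and -0.36 in round 1 and 0.40 and 0.52 in round 2 for these 2 forms. For POLR2S2 the reads were 2133 and 3553 at 4% O2 against 798 and 1210 at 20% O2. Scaled, they were 2210 and 2058 against 1866 and 1375, which did not overlap, with a log2 ratio of 0.40 ± 0.38. In every library an island of P4hb also covered part of Arhgdia, its neighbour, so the summed reads belong to both genes. The POLR2S2 island of 4% O2 round 1 also reached Alyref and Anapc11. With reads apportioned to P4hb by overlap, its POLR2 ratio was 0.90, with 0.90 in round 1 and 0.91 in round 2 and groups that did not overlap, and its POLR2S5 ratio was 0.33, also without overlap. Its POLR2S2 groups then overlapped, at a ratio of 0.59 with -0.09 in round 1, and they overlapped per kb of island as well, at 0.56 with -0.02 in round 1. Which form of P4hb separated by O2 level thus depended on how island reads were assigned.

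Plod1, a lysyl hydroxylase (chr4:147909753-147936776), was the member with the most shared signal. Its islands extended into Mfn2 and up to 4 other protein-coding genes, over as much as 115.2 kb in a single library. POLR2S5 islands held 4406 and 7141 reads at 4% O2, against 3206 and 7144 at 20% O2, or 4506 and 5690 against 6025 and 5784 scaled reads. The 4% O2 libraries were thus the lower pair, by a log2 ratio of -0.21 ± 0.44, and in round 2 the difference was only -0.02. With reads given to the window by overlap alone, the groups overlapped and the ratio was -0.04. The ratios were -0.20 ± 0.51 for POLR2 and -0.13 ± 0.35 for POLR2S2, with overlapping groups for both.

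Plod2, the lysyl hydroxylase of telopeptide lysines (chr9:92539636-92608428), had the lowest polymerase level per kb of the 5 genes with islands and, among the members, the largest ratios for the phosphorylated forms when all 4 libraries were used. Its POLR2S2 islands held 751 and 3707 reads at 4% O2, against 43 and 344 at 20% O2. The log2 ratio was 2.57 ± 0.89, with 2.95 in round 1 and 2.46 in round 2. Without the round 1 library of 20% O2 it was 1.93. POLR2S5 islands held 587 and 1922 reads at 4% O2 and 103 and 562 at 20% O2, a ratio of 1.71 ± 0.68, or 1.22 without that library. POLR2 islands held 307 and 1243 reads at 4% O2 and 115 and 603 at 20% O2. Scaled POLR2 reads overlapped between the levels, and the ratio was 0.54 ± 0.52. All 3 ratios were smaller without the 4% O2 library of round 2. They were then 1.66 for POLR2S2, 0.80 for POLR2S5, where P4ha1 was then higher at 1.22, and -0.12 for POLR2.

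In Plod2 the islands also differed in breadth. POLR2S2 islands covered 30.5% and 98.6% of the window at 4% O2, against 3.67% and 17.2% at 20% O2. POLR2S5 islands covered 19.5% and 90.7% at 4% O2 against 2.54% and 15.8% at 20% O2. Per kb of island the POLR2S2 ratio was 0.38, the POLR2S5 ratio turned to -0.85 and the POLR2 ratio to -0.58. At 20% O2 in round 2 the POLR2S2 islands sat at the 2 ends of the gene, of 6.8 and 8 kb, whereas at 4% O2 in round 2 islands of 45.2 and 27.6 kb spanned nearly all of it. No other protein-coding gene lay under the Plod2 islands. How far island breadth follows the number of reads in a library was not tested.

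**Figure D2:**
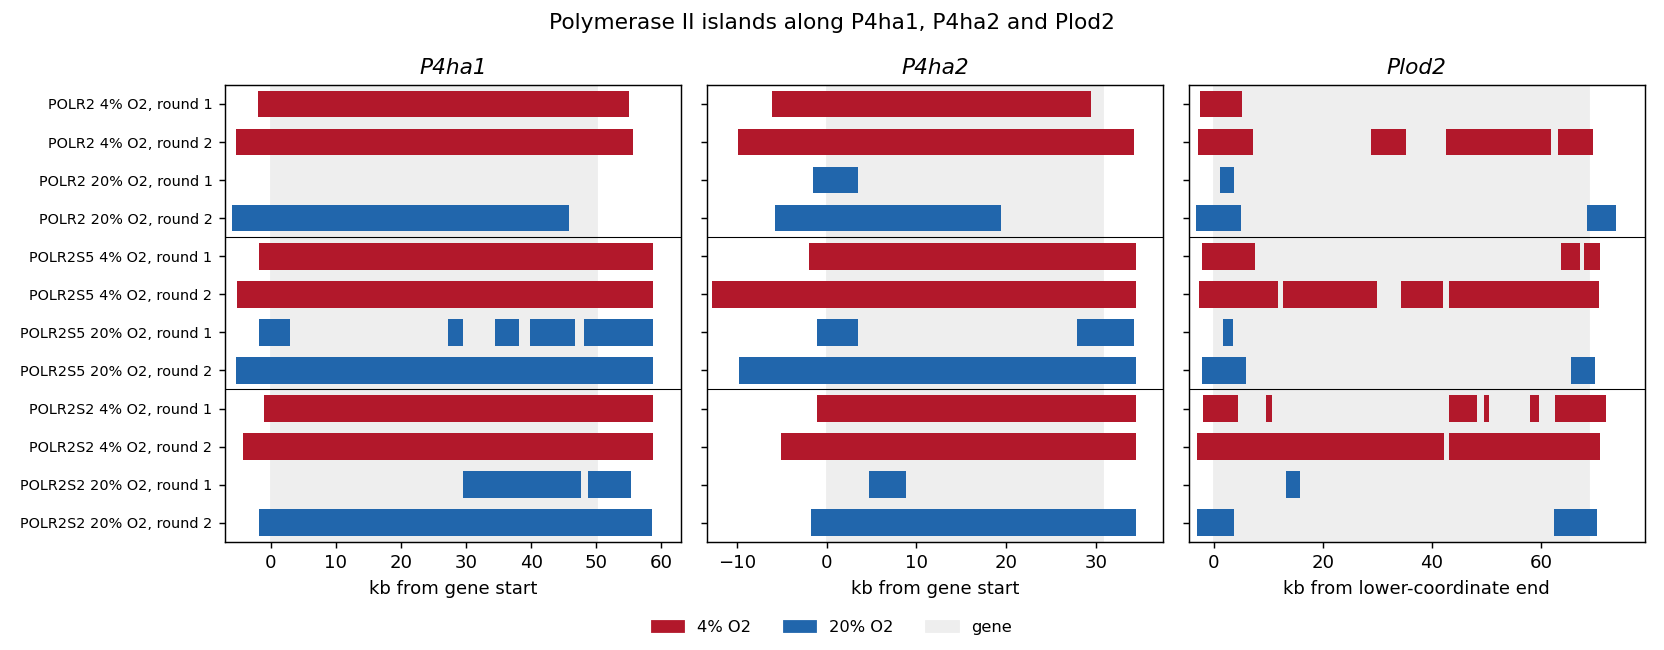
Polymerase islands along P4ha1, P4ha2 and Plod2, drawn by distance in kb from the gene start (for Plod2 from its lower-coordinate end), with the gene in grey. Each row is a library, the 4% O2 rows in red above the 20% O2 rows in blue for each antibody. Islands at 4% O2 span P4ha1 from end to end, and in Plod2 the islands of round 2 and the POLR2S2 islands of round 1 reach the gene's interior, as does the POLR2S2 island of 20% O2 round 1.

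Lox, on chromosome 18, carried no island of any polymerase form and no H3K9ac or RAD21 peak in any library. The nearest POLR2 islands lay 48.1 and 49.7 kb away at 4% O2 and 50.1 and 48.7 kb away at 20% O2. For POLR2S2 these distances were 19.7 and 21.1 kb at 4% O2 and 19.5 kb in both 20% O2 libraries. Over all protein-coding genes, the share with no call in any of 4 libraries was 36.8% for POLR2, 35.5% for POLR2S5, 39% for POLR2S2, 35.2% for H3K9ac and 44.1% for RAD21. A CTCF peak lay in Lox in round 1 at both O2 levels, and in round 2 at neither.

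Calls in all 4 libraries of an antibody were made for 4 of 6 members for POLR2, 5 for POLR2S5, 5 for POLR2S2, 5 for H3K9ac, 4 for CTCF and 3 for RAD21. The shares of all protein-coding genes were 42.2%, 52.7%, 42.8%, 58.9%, 51.6% and 34.6% in the same order. Both 4% O2 libraries stood above both 20% O2 libraries in scaled POLR2 reads for 1 of 4 members fitted, against 16% of all 9245 genes fitted. For POLR2S5 this was so of 3 of 5 members, against 17.4% of 11534 genes, and Plod1 had the opposite order, found in 14.2% of them. For POLR2S2 it was so of 4 of 5 members, against 19.1% of 9364 genes, and of 3 of 5 with reads apportioned by overlap or taken per kb of island. Ratios in both rounds lay above 0 for 2 of 4, 3 of 5 and 4 of 5 members for POLR2, POLR2S5 and POLR2S2, against 27.5%, 29.5% and 28.7% of all genes. As the members were picked on this contrast, nothing is read from these shares. The median log2 ratio of the members fitted was 0.29, 1.08 and 1.58 for the 3 forms, against 0.01, 0.01 and -0.02 for all genes fitted. Island cover of the window was greater in both 4% O2 libraries for 2 of 5, 1 of 5 and 2 of 5 members, against 21.4%, 13.6% and 24.5% of genes with an island.

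edgeR's quasi-likelihood test over all genes called 0 of 9245, 0 of 11534 and 0 of 9364 genes at an adjusted p of 0.05. At an unadjusted p under 0.05 the counts were 319, 409 and 583 genes. DESeq2 called 83 higher and 31 lower genes at 4% O2 for POLR2 (0.898% and 0.335%), 147 and 111 for POLR2S5 (1.27% and 0.962%), and 114 and 45 for POLR2S2 (1.22% and 0.481%). P4ha1 was among the 147 genes for POLR2S5, and DESeq2 called no other member for any form. The members were picked on this contrast, so nothing is read from that call, which edgeR did not make. Counted from the highest ratio, P4ha1 was gene 339 of 11534 for POLR2S5 and gene 336 of 9364 for POLR2S2. P4ha2 was gene 739 and Plod2 gene 189 of the 11534 for POLR2S5. For POLR2S2, Plod2 was gene 70, P4ha2 gene 317, P4hb gene 2534 and Plod1 gene 5387 of the 9364.

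**Figure D3:**
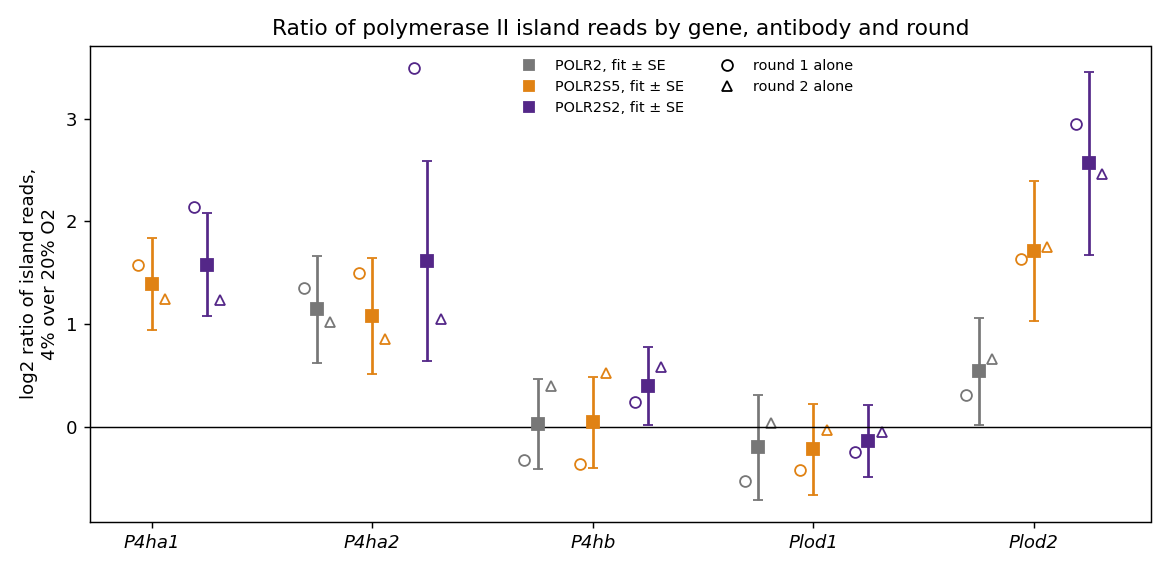
Log2 ratio of island reads, 4% over 20% O2, by gene and polymerase form. Squares with bars are the fit ± SE over 2 libraries per level, and open circles and triangles are rounds 1 and 2 alone. P4ha1, P4ha2 and Plod2 lie above 0 in both rounds for each form fitted, and the rounds of P4hb differ in sign for POLR2 and POLR2S5, all for summed reads.

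Levels per length ordered the genes differently from ratios. For these levels island reads were apportioned to the window by overlap, not summed, then scaled and divided by the window's kb. The POLR2S5 medians of 4 libraries were 62.6 for P4hb, 58.3 for P4ha2, 54.8 for P4ha1, 53.8 for Plod1 and 6.43 for Plod2. The ranges of P4hb, P4ha2, P4ha1 and Plod1 overlapped one another, so their order is not settled. Plod2 ranged between 2.73 and 20.6, and only its highest library, at 4% O2 in round 2, reached the lowest library of P4ha1, at 19.5. On the same per-kb scale P4ha1 had POLR2S2 levels of 95.9 and 110 at 4% O2 and 18.7 and 48.6 at 20% O2. Its percentile among genes with islands was 97.4 and 99.8 at 4% O2, and 41.5 and 80.2 at 20% O2. Plod2 lay at percentiles 28.8 and 59.0 at 4% O2 and 5.71 and 16.5 at 20% O2.

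H3K9ac, a mark of active promoters, was present at the start of P4ha1, P4ha2, P4hb and Plod1 and at the lower-coordinate end of Plod2 in all 4 libraries. Since the authors' scores (−log10 q) are comparable only within a library, each peak region shared by 4 libraries was given its percentile rank in each. The members held 12 such regions. Of these, 6 ranked higher and 2 lower at 4% O2 in both rounds, against 28.9% and 25.7% of 27643 shared regions in genes. The median rank difference was 9.70 percentile points over both rounds, against 0.88 for all shared regions in genes. In rounds 1 and 2 alone it was 4.16 and 2.36, against 1.59 and -0.21. The value over both rounds is the median of each region's mean, so it can lie above both.

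The region just inside P4ha1 (chr10:59323405-59327330) ranked at 90.1 and 94.3 at 4% O2, against 79.9 and 86.3 at 20% O2, with no overlap. The start region of P4ha2 (chr11:54099040-54104680) ranked at 87.6 and 99.3 at 4% O2 and 86.2 and 98.3 at 20% O2, and so hardly differed. The inner region of Plod2 (chr9:92540971-92544552) ranked at 51.2 and 58.8 at 4% O2 and 23.1 and 55.2 at 20% O2, where only round 1 differed by much. The start region of Plod1 (chr4:147935901-147938743) ranked at 87.6 and 98.9 at 4% O2 and 62.2 and 97.8 at 20% O2. The region upstream of P4ha1 (chr10:59321946-59323112) ranked at 19.1 and 82.5 at 4% O2 and 30.8 and 44.1 at 20% O2, lower in round 1 and higher in round 2. The 2 regions that ranked lower in both rounds lay in P4hb and in Plod1. The P4hb region over its start (chr11:120573014-120573312) ranked at 25.9 and 55.3 at 4% O2 and 41.1 and 57.9 at 20% O2. The inner Plod1 region (chr4:147927977-147928243) ranked at 8.50 and 10.8 at 4% O2, against 20.6 and 21.2 at 20% O2, with no overlap. Upstream of P4hb (chr11:120573460-120575833) H3K9ac ranked at 25.9 and 68.0 at 4% O2, against 76.0 and 58.5 at 20% O2, lower in round 1 and higher in round 2. P4ha2 had a second acetylated stretch within the gene, at chr11:54112283-54112975 and chr11:54113150-54116147, in all 4 libraries.

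CTCF, which with cohesin anchors chromatin loops, bound P4ha1 at its start (chr10:59323074-59323787), over the promoter printed above, and again at chr10:59358490-59359665 in all 4 libraries. RAD21 lay with CTCF at the inner site in all 4, and at the start in round 2 alone at both O2 levels. The CTCF start region ranked at 54.8 and 80.3 at 4% O2 and 63.9 and 77.1 at 20% O2, and the rounds differed in sign. At the inner P4ha1 site CTCF ranked at 42.9 and 44.5 at 4% O2, against 50.2 and 45.6 at 20% O2, and RAD21 at 15.9 and 13.2 against 27.3 and 16.9, both lower at 4% O2 in both rounds. P4ha2 had its main CTCF site inside the gene (chr11:54122486-54123611), ranked at 59.3 and 77.4 at 4% O2 against 65.6 and 65.2 at 20% O2. RAD21 at that site ranked at 84.1 and 72.1 at 4% O2 and 69.5 and 57.8 at 20% O2.

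Plod1 held a CTCF site at chr4:147917914-147919721 with RAD21 in all 4 libraries. RAD21 there ranked at 69.6 and 72.2 at 4% O2, against 54.9 and 71.2 at 20% O2. A further CTCF region at the start of Plod1 (chr4:147936010-147936958) ranked at 37.5 and 50.7 at 4% O2, against 27.8 and 19.6 at 20% O2, with no overlap. Across the members, 3 of 7 shared CTCF regions ranked higher and 1 lower in both rounds, against 31.9% and 22.9% of 24802 regions. For RAD21 it was 2 higher and 1 lower of 3, against 34.5% and 23.8% of 12364 regions.

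P4hb was the member at which RAD21 was called in both 4% O2 libraries and in neither 20% O2 library, a pattern found in 0.76% of 12239 genes with a RAD21 peak. The peak (chr11:120567665-120568020) had scores of 6.33 and 8.83 at 4% O2. It lay on a CTCF region called in all 4 libraries, with CTCF ranks of 15.9 and 24.3 at 4% O2 and 11.3 and 0.03 at 20% O2. The opposite pattern was seen at a RAD21 region of P4ha1 (chr10:59353061-59353341), called in both 20% O2 libraries with scores of 7.62 and 18.2 and in neither 4% O2 library. Counted by region, 1.08% of 88921 RAD21 regions had the pattern of P4hb and 1.11% that of P4ha1. The authors listed 39014 and 71233 RAD21 peaks at 4% O2 (rounds 1 and 2), against 26908 and 73348 at 20% O2, so the 20% O2 list of round 1 was the shortest; its part in the missing call at P4hb was not tested. Plod2 had no RAD21 peak in its window, and the nearest lay 2.39 and 1.75 kb away at 4% O2 and 2.27 and 1.76 kb away at 20% O2.

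**Figure D4:**
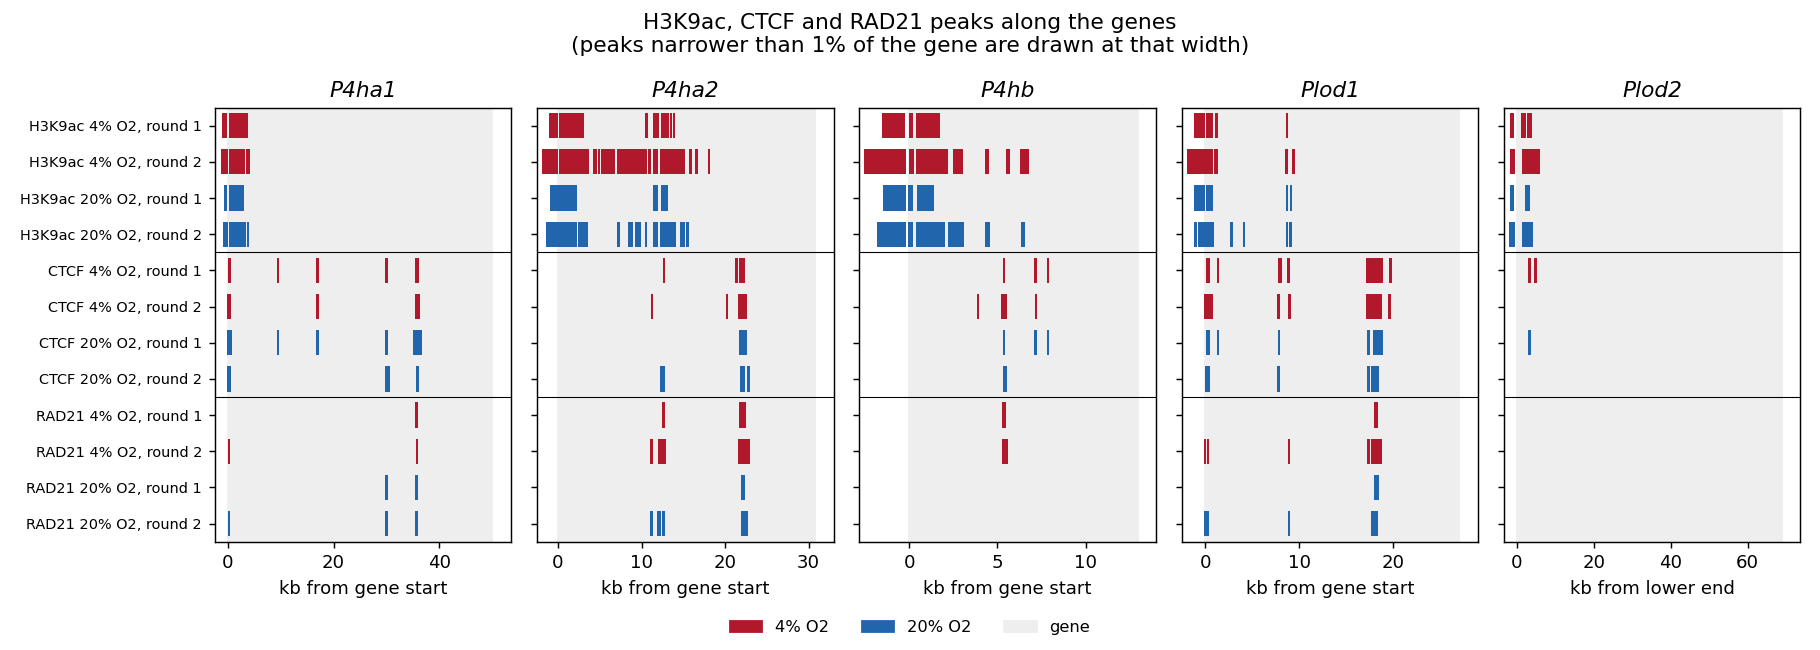
H3K9ac, CTCF and RAD21 peaks along the 5 genes with polymerase islands, by distance in kb from the gene start (for Plod2 from its lower-coordinate end), with the gene in grey. Rows are libraries, 4% O2 in red above 20% O2 in blue for each antibody, and narrow peaks are widened as the title states. H3K9ac lies at the starts of P4ha1, P4ha2, P4hb and Plod1 and at the lower-coordinate end of Plod2. It also lies farther inside P4ha2 and Plod1 in all 4 libraries. CTCF and RAD21 share sites inside P4ha1, P4ha2 and Plod1 in all 4 libraries.

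Values of the other enzymes of the pathway went in both directions. Of 8 other prolyl and lysyl hydroxylase genes and their partners, 5 had POLR2S2 islands in all 4 libraries, with a median log2 ratio of -0.03. Of these 5, 1 was higher and 2 lower at 4% O2 in both rounds, against 28.7% and 33.2% of all genes fitted. P3h3, of the prolyl 3-hydroxylase family, held 4736 and 6534 POLR2S2 reads at 4% O2 against 529 and 3145 at 20% O2, a log2 ratio of 0.85 ± 0.59 that was 0.08 in round 2. P3h4, a non-enzymatic relative, held 783 and 837 reads against 499 and 2197, a ratio of -1.50 ± 0.57. Its rounds were -0.52 and -2.36, and the latter rests on the 20% O2 library with 2197 reads. For POLR2 and POLR2S5 the ratios were 0.99 and -0.81 at P3h3 and 0.68 and -0.42 at P3h4. Fkbp10 had the same POLR2 counts as P3h4 in 4% O2 round 2 (1709) and at 20% O2 (221 and 645), so these reads may be shared. Of the 4 other lysyl oxidases, 3 were fitted for POLR2S2, with 1 higher and 1 lower in both rounds and a median of 0.06. Loxl4 held 168 and 51 POLR2S2 reads at 4% O2 against 169 and 201 at 20% O2, a ratio of -1.62 ± 0.95. Loxl2 held 306 and 1268 POLR2S2 reads at 4% O2 and 52 and 261 at 20% O2. Its ratio was 1.33 ± 0.73, with 1.38 in round 1 and 1.31 in round 2. Loxl2 had no POLR2 island in any library.

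Collagen chains are the substrates of these enzymes. Of 20 chain genes, 12 had no POLR2S2 island in any library, against 39% of all protein-coding genes, Col1a2 and Col3a1 among them, and 4 were fitted. All 4 were lower at 4% O2 in both rounds, against 33.2% of all genes fitted, with a median of -0.50. Both 4% O2 libraries lay below both 20% O2 libraries for 1 of them, against 17.8% of all genes. For POLR2, 6 chains were fitted, with 1 higher (27.5% of all genes) and 1 lower (30.5%) in both rounds and a median of 0.08. For POLR2S5, 7 were fitted, with 0 higher (29.5%) and 3 lower (30.8%) and a median of -0.13. Col18a1, an endostatin precursor, held 2939 and 3311 POLR2S2 reads at 4% O2 against 2674 and 2812 at 20% O2, a ratio of -0.93 ± 0.50. Col23a1, a transmembrane collagen, held 7575 and 6252 POLR2S2 reads at 4% O2 against 5030 and 4967 at 20% O2, a ratio of -0.60 ± 0.58. Of 16 genes for collagen folding, glycosylation and processing, 6 were fitted for POLR2S2, with 1 higher and 4 lower in both rounds and a median of -0.28. For POLR2S5 the same list had 10 fitted, with 5 higher and 2 lower, and a median of 0.34. The shares of all genes higher and lower were 28.7% and 33.2% for POLR2S2, and 29.5% and 30.8% for POLR2S5.

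Among 10 disulfide isomerases and oxidases, relatives and partners of P4hb, 8 were fitted for POLR2S2, with a median of 0.33. Of these 8, 4 were higher and 1 lower in both rounds, against 28.7% and 33.2% of all genes fitted. Ero1a, which reoxidises protein disulfide isomerase, held 2460 and 5381 reads at 4% O2 against 728 and 1714 at 20% O2, a ratio of 0.63 ± 0.36. Of 5 dioxygenases of oxygen sensing, 4 were fitted, with 2 higher and none lower, against 28.7% and 33.2%, and a median of 0.39. P4htm, a transmembrane prolyl hydroxylase, held 10955 and 17433 reads at 4% O2 against 2823 and 5571 at 20% O2, a ratio of 0.73 ± 0.35. Egln1, the main hydroxylase of hypoxia-inducible factors, had a ratio of 0.35 ± 0.33. As edgeR called 0 genes over all genes tested, none of these lists could hold a called gene.

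The genes most like each member in scaled log2 reads were found by Pearson's r over the 12 polymerase libraries, centred within antibodies, among 7302 genes with islands in all 12 and none shared with the member. For P4ha2 these were Lrrc8b, Atp6v1a and Cdk2, each at 0.98. For Plod2 they were Jak1 (0.99), Abhd4 and Rps6ka1 (0.98 each). For P4hb they were Commd4 (0.91), Arhgap1 and Leng8 (0.90 each), and for Plod1 Aldh1l2 (0.94), Trmt2a (0.93) and Nup107 (0.92). P4ha1 was compared over the 8 POLR2S5 and POLR2S2 libraries, a choice made after seeing the data, and was most like Usp28, Tfrc and Rps6ka4 (each at 0.99). All points share library totals, so these values describe likeness only.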

How the data were processed

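The authors deposited an interval list for each of 24 libraries: SICER islands for the polymerase forms and MACS2 peaks for H3K9ac, CTCF and RAD21, per the file headers. BWA, Picard and the build mm10 are named per the submitters' processing notes; the sources used here give no version or setting. In the deposited island lists the last column was taken for the read count of each island (whole numbers), and in the deposited peak lists for −log10 of a q-value, both judged from their values. For replicate 2, the deposited list under its label repeats, or gives the summits of, a list placed with replicate 1; it was counted once, as replicate 2.

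Reads were summed over islands overlapping each of 21887 genes (RefSeq, GRCm38.p6) with 1 kb each side and compared with edgeR 4.0.16 (quasi-likelihood test, TMM, 2 against 2 libraries, Benjamini-Hochberg over all genes with islands in all 4 libraries). An island spanning several genes counted for each. DESeq2 1.42.0, other scalings, filters and windows, and leaving out each library were alternatives. Within an antibody, replicate numbers mark flow cells, per the file headers, and so pair the O2 levels. CTCF of round 1 ran on a different flow cell from the other antibodies. H3K9ac of round 1 ran on lane 6 at 4% O2 and on lane 7 at 20% O2. Polymerase libraries sharing a number deviated together from their group means. The correlations across genes were 0.322, 0.385 and 0.317 for POLR2, POLR2S5 and POLR2S2. Any spread between the 2 libraries may be technical. Depth is not given, so no counting interval was computed.

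The members and gene lists were chosen with earlier results of these data known. Named genes were all 6 members, at most the 2 highest and 2 lowest of each other list by POLR2S2 ratio, genes sharing islands with a member, and the 3 most alike genes. Th, Dbh, Nos1, Col1a2, Col3a1, Dcn, Pdgfra, Pdgfrb, Pecam1, Tek and Erg are named outside this rule, as markers or examples of a count, chosen after their values were seen. Motifs were searched in RefSeq promoters from 250 bases before to 50 after the start.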

Additional observations from a re-analysis of the deposited data

How the results depend on the processing

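Per kb of island the members' median log2 ratio turned to -0.044 for POLR2 and moved to 0.24 for POLR2S5 and 0.56 for POLR2S2; for POLR2, P4ha2 turned to -0.12, Plod2 to -0.58 and Plod1 to 0.20, and for POLR2S5 Plod1 and Plod2 turned to 0.16 and -0.85. With reads apportioned by overlap the POLR2 median was 0.91, with 2 members whose groups did not overlap, and with 0 reads entered where no island was called also 2, P4ha1 being the addition. With the replicate block the medians were 0.27, 1.18 and 1.69 for POLR2, POLR2S5 and POLR2S2 and again 0 genes were called; the block changed no other call. DESeq2 called 114, 258 and 159 genes; the cause was not tested. Leaving out each library in turn gave medians of -0.11 to 0.53 for POLR2, 0.58 to 1.67 for POLR2S5 and 0.79 to 2.34 for POLR2S2, and 0 to 38, 0 to 52 and 0 genes called; the negative POLR2 median came without 4% O2 replicate 2, and the called genes without 4% O2 replicate 1. A level left with 1 library was assumed to vary like the other.

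For ranks, the H3K9ac median was 4.16 and 2.36 in rounds 1 and 2 alone, 5.95 at gene ends only, and 1.59 to 9.24 with a library left out. The CTCF median of 2.99 turned to -6.32 in round 1 alone and was 9.46 in round 2 alone. With a library left out it ranged between -3.28 and 11.7, below 0 without 4% O2 replicate 2 or 20% O2 replicate 1. The RAD21 median, over 3 or 4 regions, was 7.80, with 14.6 in round 1 alone and 0.93 in round 2 alone. With a library left out it ranged between -2.95 and 8.56, below 0 without 20% O2 replicate 1. Gene ends held no shared RAD21 region of a member, so that setting gave no value. Causes were not tested. There were 2 libraries per level, few island reads in the round 1 library of 20% O2, and depth is not given. Small ratios such as those of P4hb and Plod1 were therefore not resolved. The larger ratios of P4ha1, P4ha2 and Plod2 were not called by edgeR either and remain a description.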
